A study of Arabidopsis thaliana with 9 samples.

Results

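The genes ath-MIR156a, ath-MIR156b, ath-MIR156c, ath-MIR156d, ath-MIR156e, ath-MIR156f, ath-MIR156g and ath-MIR156h of Arabidopsis thaliana (written MIR156a to MIR156h from here on) are those whose transcripts are precursors of the microRNA (miRNA) miR156. They were taken as the probes that the array files name ath-MIR156 followed by 1 letter, which gave 9 of 15013 probes and 8 of 5154 transcripts. MIR156b had 2 probes and each of the others had 1. Total RNA of whole seedlings, 2 weeks old and grown on solid MS medium in long days, was hybridised to one-colour arrays with 3 biological replicates per genotype. The genotypes were the wild type Columbia, Col-0 (WT), the single mutant se-2 and the double mutant of CBP20 and CBP80 (cbp20 cbp80), and no treatment was named. Each mutant was 1 line, and the number of plants per sample was not given in the sources used here.

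A miRNA gene is transcribed into a long precursor that folds into a hairpin, and the Dicer enzyme DCL1 cuts the mature miRNA out of it in the nucleus. SERRATE, the zinc finger protein mutated in se-2, works with DCL1 in that cut, and CBP20 and CBP80 form the nuclear cap-binding complex, which binds the capped end of new transcripts and also takes part in the processing of these precursors. The precursors MIR156a to MIR156f give the same mature miR156, and MIR156g and MIR156h give close variants of it. Mature miR156 lowers the SPL transcription factors, is abundant in young plants and falls with age, and by this keeps the shoot juvenile. The genes MIR156a and MIR156c are known as major sources of it in that phase change.

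The values are processed signals on a log2 scale, from which the 75th percentile of each array was taken away (scaled signals). That percentile was computed over 1835 probes, those that no array left near background, and 0 is thus the level of a bright detected probe. Between 14.6% and 24.7% of the probes were well above background on an array. A probe was tested if it was so on all 3 arrays of a genotype, and 7 of the 8 precursors passed, all but MIR156f. A transcript that passes only through the genotype in which it is bright was more likely to differ, so counts and calls over those that passed are descriptions. MIR156b, MIR156d, MIR156g and MIR156h passed only through the mutants. The 6 mutant arrays lay on 1 slide and each WT array on a slide of its own, so genotype and slide cannot be told apart in any comparison with WT. The WT arrays also varied more: over tested probes the median SD among WT arrays was 0.544, against 0.0856 among se-2 arrays and 0.108 among those of cbp20 cbp80. Differences from WT are therefore given also from a fit with the slide as a random block. The probes report precursor transcripts in whole seedlings, so fewer cells of a type and less RNA per cell cannot be told apart, and mature miR156 was not measured.

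The precursors fell into 2 kinds of pattern across the genotypes. MIR156a, MIR156b, MIR156c and MIR156d were far higher on every mutant array than on any WT array. MIR156e was higher too, by less. These 5 of 7 tested members had no overlap with WT, all higher, in either mutant. Over all tested transcripts that held for 23.4% higher and 26.2% lower in se-2 and for 28.9% higher and 18.5% lower in cbp20 cbp80. The arrays of WT and the mutants overlapped for MIR156g and MIR156h.

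The scaled signals of MIR156a were -2.61, -2.004 and -2.87 in WT replicates 1, 2 and 3, then 3.19, 3.09 and 3.11 in se-2 and 2.61, 2.58 and 2.55 in cbp20 cbp80. The 3 genotypes did not overlap, in the order WT, cbp20 cbp80, se-2. In processed signal, before scaling, MIR156a read 29.5 to 91.6 on the WT arrays, 4256 to 4807 on those of se-2 and 1901 to 2091 on those of cbp20 cbp80. MIR156c had scaled signals of -2.09, -2.01 and -2.51 in WT, 3.70, 3.61 and 3.68 in se-2 and 3.18, 3.07 and 3.08 in cbp20 cbp80. Its genotypes stood in the same order, again with no overlap. Both were well above background on all 9 arrays, so their folds are measured on both sides.

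The brighter probe of MIR156b (probe 1) gave scaled signals of -5.70, -5.19 and -6.16 in WT, -1.14, -1.17 and -1.09 in se-2 and -1.44, -1.43 and -1.51 in cbp20 cbp80. Probe 2 gave -5.64, -5.33 and -6.62 in WT, -2.30, -2.18 and -2.38 in se-2 and -2.41, -2.40 and -2.39 in cbp20 cbp80. With both probes the 3 genotypes kept the order WT, cbp20 cbp80, se-2 with no overlap, and both were well above background on 1 WT array, that of replicate 2. MIR156d read -5.69, -5.92 and -5.24 in WT, -0.60, -0.58 and -0.61 in se-2 and -0.45, -0.47 and -0.54 in cbp20 cbp80. It was the member of these 4 whose order differed, with every cbp20 cbp80 array above every se-2 array. WT replicate 1 was not well above background for MIR156d.

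MIR156e had scaled signals of -4.71, -4.42 and -4.59 in WT, -3.72, -3.82 and -3.76 in se-2 and -4.08, -3.80 and -3.75 in cbp20 cbp80. It was well above background on all 9 arrays, each mutant array lay above each WT array, and the 2 mutants overlapped. MIR156g read -6.73, -6.44 and -4.45 in WT, -5.15, -5.56 and -5.44 in se-2 and -5.64, -5.24 and -5.45 in cbp20 cbp80. MIR156h read -5.86, -5.76 and -3.78 in WT, -5.04, -5.06 and -5.25 in se-2 and -4.77, -5.04 and -4.73 in cbp20 cbp80. For both of these, WT replicate 3 was the highest of the 9 arrays and the other WT arrays were below all 6 mutant arrays. WT replicate 3 is also the array that the scanner software extracted under another protocol.

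MIR156f was dim everywhere. Its processed signals were 0.872 to 0.908 in WT, where no array was well above background, and 3.19, 6.61 and 4.79 in se-2, where replicates 2 and 3 were. In cbp20 cbp80 they were 2.24 and 3.84 in replicates 2 and 3, neither well above background, and 43.1 in replicate 1, where the spot was marked as an outlier and was left out. No genotype had all 3 arrays well above background, so it was not tested and no fold is given for it.

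**Figure D1:**
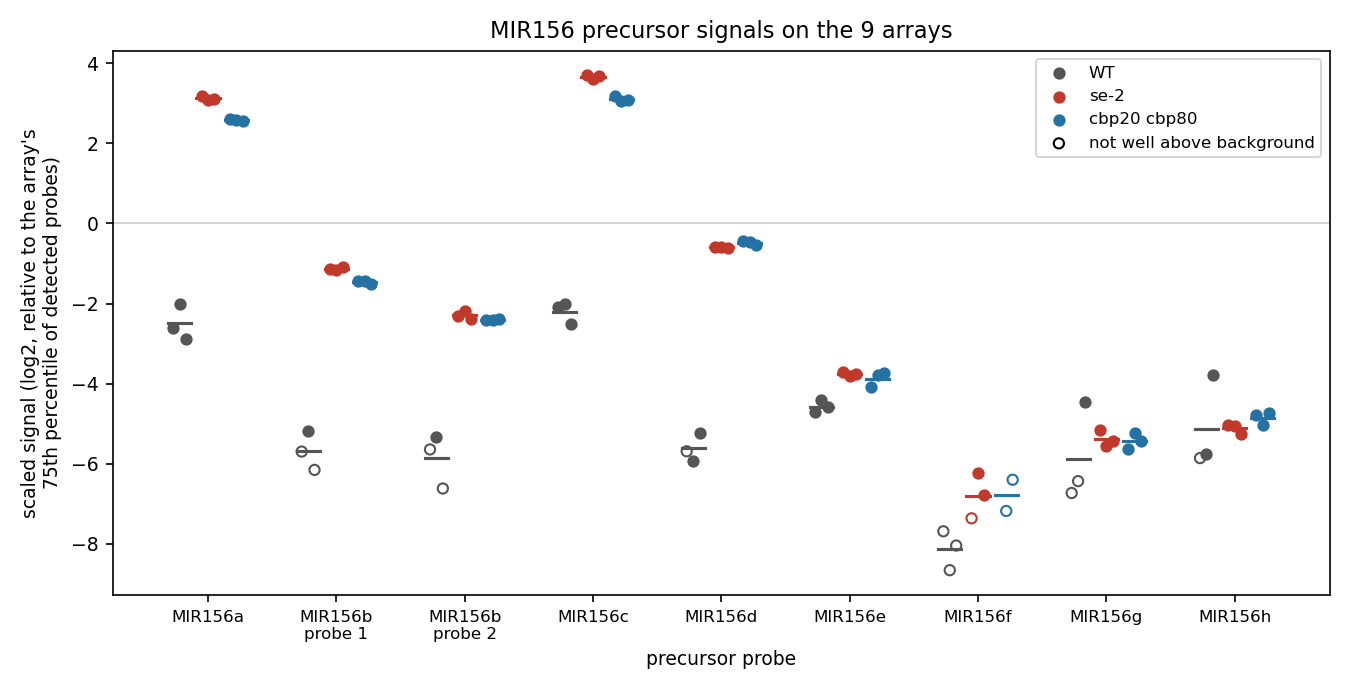
Scaled signal (log2, relative to the 75th percentile of the detected probes of the array) of the 9 MIR156 probes on each array, with 3 arrays per genotype as points and the mean as a line. Open points were not well above background, and the outlier spot of MIR156f in cbp20 cbp80 replicate 1 is left out. MIR156a, MIR156b, MIR156c and MIR156d separate WT (for MIR156a -2.87 to -2.004) from both mutants (2.55 to 3.19), while WT replicate 3 stands above all mutant arrays for MIR156g (-4.45) and MIR156h (-3.78).

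The comparison of se-2 with WT shows which precursors differed in the mutant of SERRATE, with genotype and slide not told apart. In se-2, 5 of the 7 tested MIR156 precursors rose, none fell and 2 did not pass limma's test at an adjusted p of 0.05. Over all 1724 tested transcripts, 18.2% were called higher and 19.5% lower by the same rule. MIR156c rose by 5.87 ± 0.17 on the log2 scale (SE, n = 3), or 58.3-fold, with an adjusted p of 2.85e-07 by limma. MIR156a rose by 5.63 ± 0.22, or 49.4-fold (limma, adjusted p = 1.04e-06).

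MIR156d rose by 5.02 ± 0.19, at least 32.0-fold (limma, adjusted p = 7.76e-07), where the dim WT array stands at the lowest signal that was well above background on it. MIR156b rose by 4.55 ± 0.23 by its brighter probe and was at least 22.1-fold higher (limma, adjusted p = 3.02e-06). Its probe 2 rose by 3.58 ± 0.30, or at least 10.3-fold, so the 2 probes of this precursor agreed in direction and not in size. The 4 rises kept their calls with the slide as a block, by which 5.51% of all transcripts were called higher and 1.28% lower. The limma adjusted p was then 0.000245 for MIR156c, 0.000292 for MIR156a and MIR156d, and 0.000758 for MIR156b.

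The rise of MIR156e in se-2 was smaller, 0.80 ± 0.16 or 1.75-fold (limma, adjusted p = 0.00408), and it lost its call with the slide as a block (adjusted p = 0.565). It also lost it with array weights (adjusted p = 0.0743). Under normexp background correction with the same scaling, MIR156e was called lower instead (-0.53, adjusted p = 0.000895), as were MIR156g (-0.85, adjusted p = 0.000125) and MIR156h (-0.86, adjusted p = 0.000136). In that setting the median change of all probes was -0.77. MIR156g differed by 0.49 ± 0.53 (limma, adjusted p = 0.502), with a 95% interval of -0.73 to 1.70. MIR156h differed by 0.02 ± 0.50 (adjusted p = 0.98), with an interval of -1.12 to 1.16. These intervals hold changes of more than 1 on the log2 scale, so the arrays do not show that either precursor stayed at its WT level. Without WT replicate 3 both were called higher, MIR156g by 1.19 (limma, adjusted p = 0.00169) and MIR156h by 0.69 (adjusted p = 0.00659). MIR156g was also called higher with the percentile over all probes (1.44, adjusted p = 0.0284), where the median of all probes was 0.95.

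The comparison of cbp20 cbp80 with WT shows the same for the double mutant, with the same limit and against the same 3 WT arrays. Again 5 of the 7 tested precursors rose, none fell and 2 did not pass limma's test, while 24.4% of all tested transcripts were called higher and 14% lower. MIR156c rose by 5.31 ± 0.17 (SE, n = 3), or 39.7-fold (limma, adjusted p = 6.09e-07). MIR156d rose by 5.13 ± 0.19 and was at least 34.5-fold higher (limma, adjusted p = 1.26e-06).

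MIR156a rose by 5.08 ± 0.22 in cbp20 cbp80, or 33.7-fold (limma, adjusted p = 2.96e-06). MIR156b rose by 4.22 ± 0.23 by its brighter probe, at least 17.6-fold (limma, adjusted p = 7.78e-06), and by 3.46 ± 0.30, at least 9.46-fold, by probe 2. With the slide as a block, by which 4.93% of all transcripts were called higher and 0.638% lower, these 4 kept their calls. The limma adjusted p was 0.000496 for MIR156c and MIR156d, 0.000828 for MIR156a and 0.00183 for MIR156b.

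MIR156e rose by 0.70 ± 0.16 in cbp20 cbp80, or 1.62-fold (limma, adjusted p = 0.00838). Its call ended with the slide as a block (adjusted p = 0.644) and in a fit of the 6 arrays of WT and this mutant alone (adjusted p = 0.0519). It also ended with array weights (adjusted p = 0.117), with no filter on dim probes (0.103) and with normexp and quantile scaling (0.0868). Under normexp with the same scaling, where the median change of all probes was -0.31, its sign turned (-0.20, limma adjusted p = 0.12). MIR156g and MIR156h were then called lower (-0.39 and -0.34, adjusted p = 0.0242 and 0.0434). MIR156g differed by 0.43 ± 0.53 (limma, adjusted p = 0.545; 95% interval -0.79 to 1.65) and MIR156h by 0.28 ± 0.50 (adjusted p = 0.676; interval -0.86 to 1.43). Leaving out WT replicate 3 again gave calls for both, MIR156g by 1.14 (limma, adjusted p = 0.00214) and MIR156h by 0.96 (adjusted p = 0.00162).

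**Figure D2:**
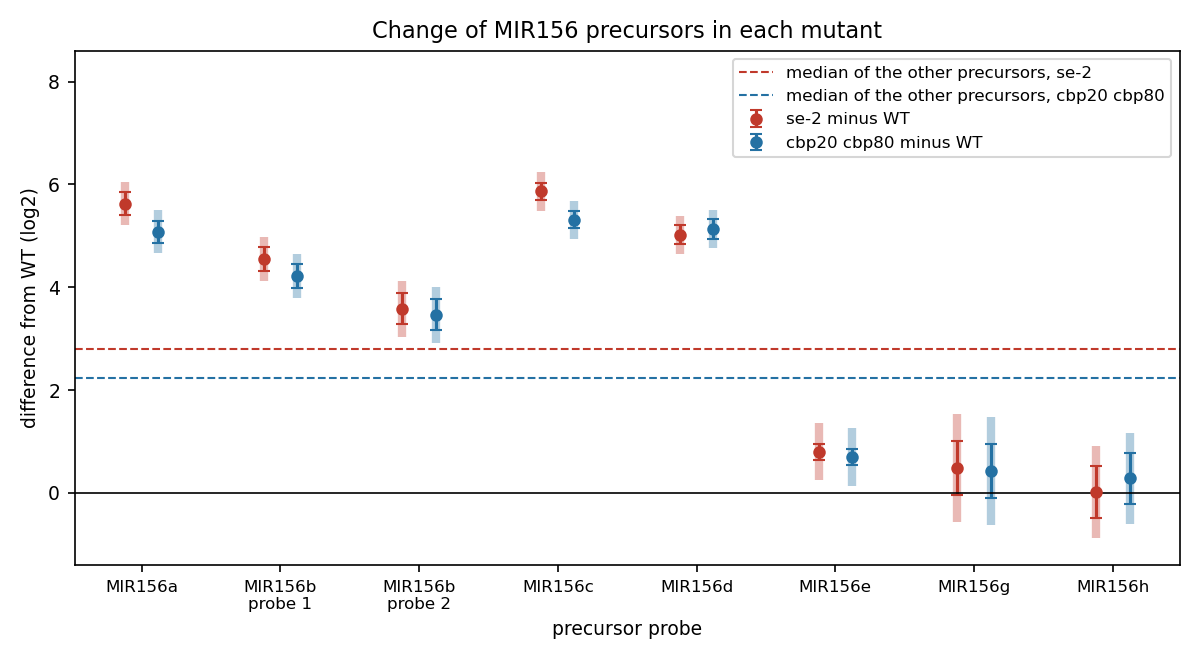
Difference of each mutant from WT (log2) for the 8 tested MIR156 probes, with n = 3 arrays per genotype. Thin bars with caps are the SE of limma's fit and broad pale bars the SE with the slide as a random block, and dashed lines are the medians of the 119 other tested precursors (2.80 in se-2, 2.24 in cbp20 cbp80). MIR156a to MIR156d lie above these medians (3.46 to 5.87) and MIR156e, MIR156g and MIR156h below them (0.02 to 0.80).

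The median change of the 7 tested members was 4.55 in se-2 and 4.22 in cbp20 cbp80. It is the value of MIR156b, dim on 2 of 3 WT arrays, for which only at least 22.1-fold and at least 17.6-fold can be given. It was 3.08 and 2.78 without se-2 replicate 1, when MIR156f joined the tested members, and 1.101 and 0.98 under normexp with the same scaling. The 119 other tested miRNA precursors had medians of 2.80 and 2.24, and all 1724 transcripts had medians of 0.013 and 0.26. In se-2, 91 of those other precursors rose, 4 fell and 24 did not pass. In cbp20 cbp80, 83 rose, 4 fell and 32 did not pass.

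By size of change the members stood apart from each other among the miRNA precursors, with 4 near the top and 3 low in the order. The ranks use measured differences, also where a probe was dim on some WT arrays, as for MIR156b, MIR156d, MIR156g and MIR156h. In se-2, MIR156c, MIR156a, MIR156d and MIR156b ranked 3, 5, 10 and 16 of 126 tested precursors, and MIR156e, MIR156g and MIR156h ranked 100, 105 and 112. In cbp20 cbp80, MIR156c, MIR156d, MIR156a and MIR156b ranked 1, 2, 3 and 9, and MIR156e, MIR156g and MIR156h ranked 96, 99 and 102. Among all 1724 transcripts MIR156c ranked 4 in se-2 and 2 in cbp20 cbp80. The members low in this order include MIR156e, whose mature product is that of MIR156a to MIR156d, as well as the variants MIR156g and MIR156h.

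Between the mutants, MIR156a, MIR156b and MIR156c were higher on every se-2 array than on any cbp20 cbp80 array, by amounts smaller than either rise from WT. With MIR156d, lower on every se-2 array, that makes 3 of 7 members higher and 1 lower without overlap, beside 15.1% and 45% of all transcripts. Of the 119 other tested miRNA precursors, 79 were higher and 21 lower without overlap. The 2 mutants share a slide, so their difference can be read within it. In the fit of all 9 arrays, which carries the larger spread of WT, none of the 7 members was called by limma, while 2.84% of all transcripts were called higher and 2.73% lower. At an unadjusted p under 0.05, MIR156a (0.0361) and MIR156c (0.00976) passed in that fit, and the share of all transcripts at that threshold was not computed. Without WT replicate 2, limma called MIR156a and MIR156c higher (adjusted p = 0.0193 and 0.0341), beside 81 of 1730 transcripts higher and 154 lower. Without WT replicate 3 it called MIR156c higher (adjusted p = 0.0086), beside 86 of 1751 transcripts higher and 243 lower.

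In the fit of the 6 mutant arrays 3 of 7 were called higher in se-2 and none lower, where 11.4% of all transcripts were called higher and 35.6% lower. Of the 119 other tested miRNA precursors, 74 were called higher and 17 lower in that fit. By this difference MIR156c, MIR156a and MIR156b ranked 56, 57 and 71 of 126 tested precursors. MIR156c was higher in se-2 by 0.56 ± 0.05 (SE, n = 3), or 1.47-fold (limma, adjusted p = 0.000805). MIR156a was higher by 0.55 ± 0.05, or 1.46-fold (adjusted p = 0.00064), and MIR156b by 0.32 ± 0.05, or 1.25-fold (adjusted p = 0.00358). Probe 2 of MIR156b gave 0.12 ± 0.06 and was not called (adjusted p = 0.174).

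MIR156d gave the opposite sign, -0.11 ± 0.04, with arrays that did not overlap and no call (limma, adjusted p = 0.0905, 95% interval -0.22 to 0.00018). That sign depended on the scaling, as it became 0.045 with median scaling and 0.24 with the percentile over all probes. The intervals of the others within the slide were -0.14 to 0.36 for MIR156e, -0.32 to 0.43 for MIR156g and -0.54 to 0.0060 for MIR156h. None of these 3 was called, with limma adjusted p of 0.42, 0.769 and 0.0957.

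**Figure D3:**
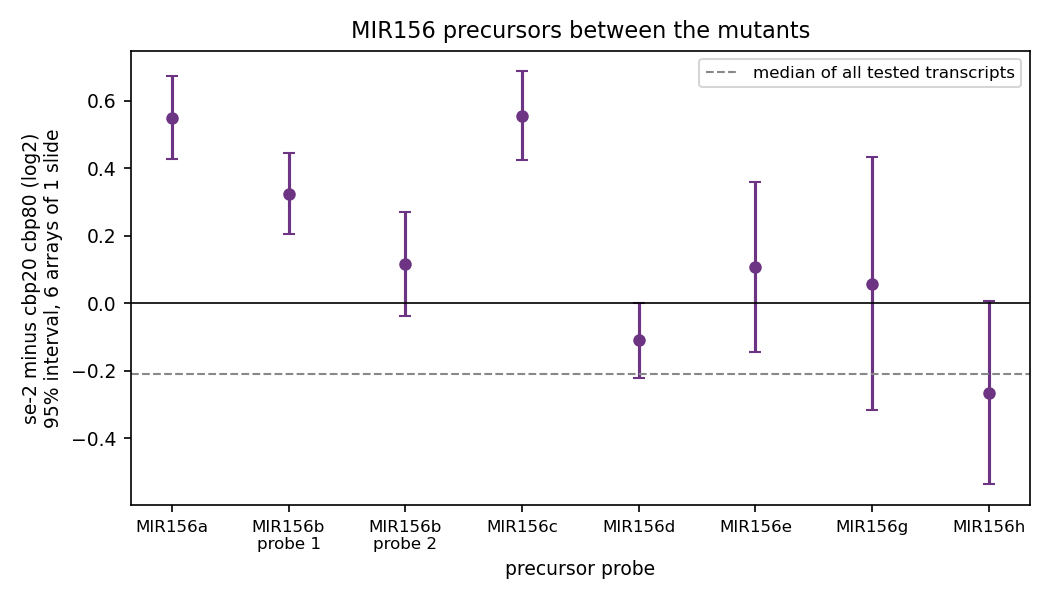
Difference of se-2 minus cbp20 cbp80 (log2) for the 8 tested MIR156 probes, from the 6 arrays of 1 slide, with 95% intervals of limma's fit (n = 3 arrays per genotype). The intervals of MIR156a (0.55), MIR156b probe 1 (0.32) and MIR156c (0.56) lie above 0 and those of the other probes include it. The dashed line is the median of all tested transcripts, -0.21.

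The related precursors MIR157a to MIR157d give miR157, which belongs to the miR156 family and also targets SPL genes. All 4 were tested and all 4 rose in both mutants, with and without the slide as a block. In se-2 the changes were 2.56 for MIR157a, 2.80 for MIR157b, 3.47 for MIR157c and 3.68 for MIR157d, with a median of 3.14. In cbp20 cbp80 they were 2.24, 2.34, 1.83 and 2.07, with a median of 2.15.

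By the brightest probe of each gene, every MIR157 change from WT was smaller than those of MIR156a to MIR156d in the same mutant, and larger than those of MIR156e, MIR156g and MIR156h, though these differences between genes were not tested. MIR157c and MIR157d were higher in se-2 than in cbp20 cbp80 by 1.64 ± 0.17 and 1.62 ± 0.18 in the fit of 9 arrays (limma, adjusted p = 0.00162 and 0.00176). Within the slide all 4 were called higher in se-2, MIR157a by 0.32 and MIR157b by 0.46 (limma, adjusted p = 0.00659 and 0.0038).

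In the age pathway miR156 acts before miR172, through SPL proteins that raise MIR172b. Of the 5 MIR172 precursors 3 were tested, and all 3 rose in both mutants. MIR172a and MIR172b were well above background on no WT array, and MIR172e by its brightest probe on 1. All 3 thus entered the tested set through the mutants, where they were high, and their calls are descriptions. The bounds of MIR172b were at least 377-fold higher for se-2 and at least 10.1-fold higher for cbp20 cbp80 (limma, adjusted p = 1.84e-06 and 0.000193). Its lowest log2 changes under any alternative were 4.73 and 0.46. MIR172a was at least 20.5-fold and at least 3.58-fold higher in the 2 mutants, and under normexp with the same scaling its change in cbp20 cbp80 turned to -0.14 (limma, adjusted p = 0.225). MIR172e was at least 5.26-fold and at least 3.81-fold higher, and the latter call ended with the slide as a block (adjusted p = 0.103). Under normexp with the same scaling MIR172e gave -0.23 and -0.030, neither called (limma, adjusted p = 0.066 and 0.813). The probes of MIR172c and MIR172d were well above background on no array.

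No probe was named for any of the 11 SPL genes that miR156 targets, so the targets could not be read beside the precursors. Of 10 genes of miRNA processing, 1 was on the array, DCL1, and SERRATE, CBP20 and CBP80 were not, so the arrays hold no check of the mutated genes. The brightest of the 3 DCL1 probes differed from WT by 0.38 ± 0.14 in se-2 (limma, adjusted p = 0.0655) and by -0.33 ± 0.14 in cbp20 cbp80 (adjusted p = 0.106). Of its other probes, 1 was called higher in se-2 (0.53, adjusted p = 0.0402) and the last gave -0.06, so the probes disagreed in direction there. In cbp20 cbp80 these gave -0.23 and -0.81, the second called lower (limma, adjusted p = 0.00191), so all 3 probes were below WT, and their mean was called (-0.46, adjusted p = 0.0351). The brightest was called higher in se-2 without WT replicate 3 (0.45, limma adjusted p = 0.0138) and lower in cbp20 cbp80 without WT replicate 2 (-0.43, adjusted p = 0.0109). It was also called higher in se-2 with the percentile over all probes, quantile normalization, normexp with the same scaling and a stricter filter on dim probes. In cbp20 cbp80 it was also called lower with median scaling and normexp with the same scaling. Most alternatives left it uncalled. Within the slide DCL1 was higher in se-2 than in cbp20 cbp80 by 0.71 ± 0.04 (limma, adjusted p = 0.000152), and its other probes gave 0.76 and 0.75.

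By the TAIR10.1 gene annotation given for reference, 4 MIR156 genes lie inside a larger annotated locus. MIR156b lies in AT4G30975, an ncRNA locus, and MIR156f in AT5G26146, a long noncoding RNA locus, and both of these loci have 3 probes of their own on the array. MIR156d lies in AT5G10946 and MIR156g in AT2G19420, both annotated as protein coding, and neither is named on the array. That table gives no strand, so whether a locus and its MIR156 gene run the same way is not known here. These 2 loci were picked for their position after the array values had been seen. The table also names MIR156i, next to SPL4, and MIR156j, next to SPL9, and no probe is named for either.

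The brightest probe of AT4G30975 had scaled signals of -1.03, -0.88 and -0.21 in WT, 1.18, 1.36 and 1.26 in se-2 and 0.84, 0.79 and 0.84 in cbp20 cbp80. The 3 genotypes did not overlap, in the order WT, cbp20 cbp80, se-2, as for MIR156b. It rose by 1.97 ± 0.22 in se-2, or 3.92-fold (limma, adjusted p = 0.000218), and by 1.53 ± 0.22 in cbp20 cbp80, or 2.89-fold (adjusted p = 0.000919). With the slide as a block the first call held (adjusted p = 0.0385) and the second did not (adjusted p = 0.112). Its other 2 probes rose by 2.37 and 2.19 in se-2 and by 1.91 and 1.84 in cbp20 cbp80. All 3 changes in each mutant were smaller than those of both MIR156b probes. Within the slide AT4G30975 was higher in se-2 by 0.44 ± 0.06 (limma, adjusted p = 0.00274), beside 0.32 for MIR156b.

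AT5G26146 showed another order. Its brightest probe had scaled signals of -3.53, -2.95 and -5.60 in WT, -4.72, -4.61 and -4.44 in se-2 and -2.83, -2.75 and -2.59 in cbp20 cbp80, and WT replicate 3 was not well above background. With this probe the WT arrays spanned the se-2 arrays and lay below the cbp20 cbp80 arrays. With another of its probes WT and cbp20 cbp80 overlapped, as WT replicate 2 (-3.27) lay above the cbp20 cbp80 arrays.

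The change of AT5G26146 from WT was -0.56 ± 0.58 in se-2 (limma, adjusted p = 0.479) and 1.30 ± 0.58 in cbp20 cbp80 (adjusted p = 0.109). Without WT replicate 3 these were -1.03 and 0.71 and were called (limma, adjusted p = 0.000895 and 0.0047). Without WT replicate 2 they were 0.25 (adjusted p = 0.764) and 1.99 (adjusted p = 0.0314), the second called. Within the slide AT5G26146 was lower in se-2 than in cbp20 cbp80 by all 3 probes, the brightest by -1.87 ± 0.10 (limma, adjusted p = 0.000118). None of the MIR156 precursors tested there showed a difference of that size.

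**Figure D4:**
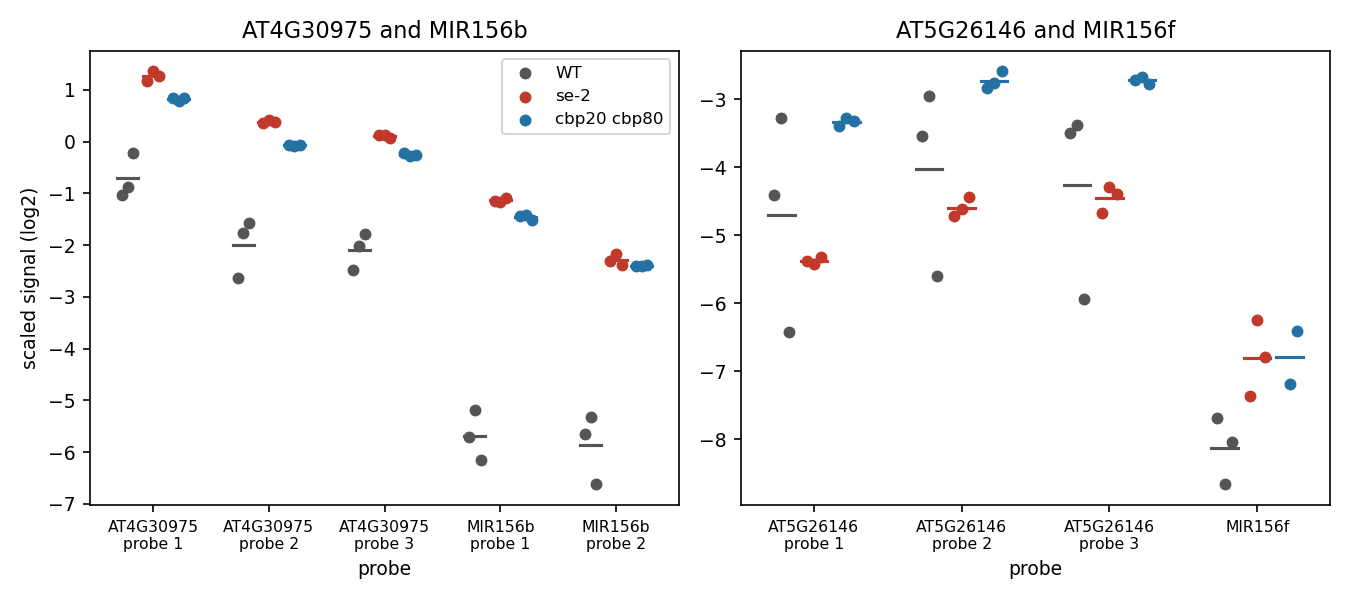
Scaled signals (log2) on the 9 arrays of the probes of AT4G30975 and MIR156b (left) and of AT5G26146 and MIR156f (right), with arrays as points and genotype means as lines. The outlier spot of MIR156f in cbp20 cbp80 replicate 1 is left out, and points not well above background are not marked. Levels of different probes are not comparable. AT4G30975 and MIR156b stand lowest in WT (-1.03 to -0.21 for the brightest probe of AT4G30975), while for AT5G26146 the se-2 arrays lie within the range of WT (-5.60 to -2.95 for its brightest probe).

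The transcripts most like the members were sought by the root mean square difference, over the 9 arrays, between their centred scaled signals and the mean of the 7 tested members. The 5 nearest were the transcription unit AT3TU077970 (0.165), MIR169a (0.23), MIR398c (0.233), the transcription unit AT5TU062350 (0.245) and MIR398b (0.254). The members themselves lay farther from their own mean, from 0.683 for MIR156b to 1.48 for MIR156h. The mean of the family therefore describes none of its members closely. MIR169a rose by 3.62 in se-2 and 3.09 in cbp20 cbp80, between the changes of MIR156b by its brighter probe and those of MIR156e.

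The defining markers of the tissue could not be read, as 0 of 6 leaf, 0 of 4 root and 0 of 5 flower markers were on the array. Of 6 seed and embryo markers 2 were on it, EM1 and EM6, which encode late embryogenesis proteins. EM1 was well above background on no WT array, so it was tested only through the mutants and its calls are descriptions. Its bounds were at least 34.5-fold higher for se-2 and at least 3.65-fold higher for cbp20 cbp80 (limma, adjusted p = 6.59e-05 and 0.003). The second of these calls ended with the slide as a block (adjusted p = 0.166), and its sign turned under normexp with the same scaling (-0.095). EM6 passed as well above background on 1 WT array and on no array of a mutant. The summed scaled linear level of both was 0.00764 to 0.0274 on the WT arrays, 0.534 to 0.549 on those of se-2 and 0.05 to 0.0735 on those of cbp20 cbp80. By its brightest probe EM1 was higher in se-2 than in cbp20 cbp80 by 3.24, beside -0.11 to 0.56 for MIR156a to MIR156d by theirs. By that probe and in the main fit, EM1 had the direction from WT of MIR156a to MIR156d and another size between mutants. Its part in their rise was not tested. The dimmest of its 3 probes, well above background on no array of WT or cbp20 cbp80, was not called in either mutant (limma, adjusted p = 0.0501 and 0.152).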

How the data were processed

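Per the file headers, the deposited files are scanner output, 1 intensity for each spot, made with Agilent Feature Extraction 10.5.1.1 (WT replicates 1 and 2) or 10.7.3.1 (the other arrays), with background subtracted and nothing normalized between arrays. Per the labels' protocols, Cy3-labelled cRNA was made from 0.5 ug of RNA. The authors' deposited value table holds values that read as log2, with column medians of 0.322 to 0.323. Its log2 scale was read from the values, and its centring is not given in the sources used here.

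Control spots and outlier spots (0 to 39 per array) were left out, and no spot was saturated. Tested were 3103 probes of 1724 transcripts, with 23 values missing, in 1 limma 3.58.1 fit (R 4.3.3) over 9 arrays with a mean per genotype. P-values were two-sided and Benjamini-Hochberg adjusted over all tested probes, with a threshold of 0.05. A transcript stands by its brightest probe. A fold written "at least" replaces the value of the lower genotype on each array where the probe was dim. The value put in is the lowest signal that passed as well above background there, unless the dim value was higher. Such a fold bounds the effect of the dim arrays alone, and not the spread of the fit or the background correction. The slide block (duplicateCorrelation) had a consensus correlation of 0.948, counts its degrees of freedom over arrays, and so may give p-values that are too small. The fit was tested on simulated data with independent arrays, equal spread in all genotypes and no slide effect, unlike these data. Figures used matplotlib 3.10.9 in Python 3.11.15.

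Named were all members, the tested members of fixed lists (MIR157, MIR172, SPL targets, miRNA processing, tissue markers), the reference table's MIR156 loci and the 5 transcripts nearest to the members' mean. The members and lists were chosen with earlier results of these data known. The array files use an older genome build than the reference table, so no coordinates are given, and no sequences were used here.

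Alternatives were median, all-probe percentile and quantile scaling, normexp (offset 50) with the same or quantile scaling, the authors' table, no filter and a stricter filter, blocks for slide and replicate number, array weights, only the 6 arrays compared, the mean of a transcript's probes, and each array left out. Normexp used the median spot signal, as the files used here hold no mean signal.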

Additional observations from a re-analysis of the deposited data

How the results depend on the processing

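MIR156a, MIR156b, MIR156c and MIR156d kept their direction and call in both mutants against WT under every alternative that tested them. MIR156b and MIR156d passed the filter only through the mutants, where they were high, so their calls are descriptions. The stricter filter did not test these 2. In se-2 their log2 changes ranged over 4.47 to 6.57, 1.101 to 5.50, 5.02 to 6.81 and 1.66 to 5.97, and in cbp20 cbp80 over 3.84 to 5.67, 0.98 to 4.82, 4.42 to 5.91 and 1.80 to 5.73. The low ends for MIR156b and MIR156d came from normexp with the same scaling, which adds an offset to every signal. So did those of MIR156a and MIR156c. The number of members called was 5 in each mutant. It became 3 of 3 tested under the stricter filter, and 5 to 7 when 1 array was left out. It was 4 in each mutant with the slide block or array weights, and 4 in cbp20 cbp80 with the 6 arrays alone, no filter (of 8 tested) or normexp and quantile scaling. In se-2 it was 6 with the all-probe percentile and 6 of 8 with no filter. With normexp and the same scaling 4 were called higher and 3 lower in se-2, and 4 higher and 2 lower in cbp20 cbp80. Without se-2 replicate 1, MIR156f was tested too and 6 of 8 members were called in each mutant. Between the mutants the number was 0, and became 1 with median scaling, the all-probe percentile, quantile normalization or the authors' table, 3 with normexp and quantile scaling, the slide block, array weights or the 6 arrays alone, and 5 (2 higher, 3 lower) with normexp and the same scaling. It was 0 to 2 with 1 array left out, with 2 calls (MIR156a and MIR156c) without WT replicate 2 and 1 (MIR156c) without WT replicate 3. Same-numbered replicates did not deviate together (correlations -0.0483 to 0.0297), and the replicate block gave 5, 5 and 0 calls. Signs turned for low or small values; the cause was not tested. With normexp and the same scaling the change in se-2 was -0.53 for MIR156e, -0.85 for MIR156g, -0.86 for MIR156h and -0.23 for MIR172e, and in cbp20 cbp80 it was -0.20, -0.39, -0.34 and -0.030 for these, -0.14 for MIR172a and -0.095 for EM1. Between the mutants it was -0.33 for MIR156e, -0.46 for MIR156g and -0.20 for MIR172e. MIR156h in se-2 became -0.078 with median scaling and ran from -0.36 to 0.69 with 1 array left out, in cbp20 cbp80 from -0.13 to 0.96, and MIR156g there from -0.050 to 1.14. Between the mutants MIR156g ran from -0.059 to 0.16. MIR156d became 0.045 with median scaling and 0.24 with the all-probe percentile, and MIR156h 0.084 with the all-probe percentile, 0.11 with quantile normalization, 0.0030 with normexp and quantile scaling and 0.13 in the authors' table. AT5G26146 in se-2 became 0.38 with the all-probe percentile and ran from -1.03 to 0.25 with 1 array left out, and DCL1 in cbp20 cbp80 became 0.27 with that percentile. The DCL1 difference between the mutants (adjusted p = 0.0289 over 9 arrays) was not called when any mutant array was left out (highest adjusted p 0.144). The scaling moved the median change of all probes in se-2 from 0.0024 to 0.95 with the all-probe percentile and to -0.77 with normexp, and the transcripts called from 313 higher and 336 lower to 933 and 85, and to 149 and 1306. In cbp20 cbp80 421 higher and 241 lower became 840 and 112, and 187 and 881. Without a filter on dim probes MIR156f changed by 1.33 in se-2 (limma, adjusted p = 0.0232) and by 1.34 in cbp20 cbp80 (adjusted p = 0.107), values that lie near background and give no fold.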
